A study of Mus musculus with 6 samples.

Results

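The genes of cell to cell contact, namely cadherins, protocadherins, claudins, nectins, connexins and the proteins of their plaques, were examined in sorted mouse Leydig cells. Members were chosen by gene symbol alone, and 86 of the 10580 genes in the deposited table matched. RNA had been sequenced from 6 libraries, 3 of fetal Leydig cells (FLCs) at embryonic day 18.5 and 3 of adult Leydig cells (ALCs) at postnatal day 100. Every animal was an XY male of the Nr5a1 Tg genotype, which carries a green fluorescent protein gene driven by Nr5a1, a gene active in steroidogenic cells. FLCs came from embryos of CD-1 dams mated with heterozygous transgenic males, and ALCs from heterozygous transgenic males. The cells with the strongest fluorescence were sorted, and the FLCs of several sorts were combined to reach enough RNA, so an FLC library is a pool. Nr5a1 is also active in Sertoli cells, at a lower level, and the gate on bright cells was set to separate Leydig cells from them. The paper reports low levels of markers of other testis cell types in these libraries. Whether each library holds Leydig cells alone was not tested here.

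The values used are the authors' mean of normalized counts over all 6 libraries, so each gene has 1 value for both stages together. No value per library or per stage was used, so no comparison of FLCs with ALCs, no error between replicates and no depth per library is given. Only genes with an adjusted p below 0.05 in the authors' own comparison of the stages are listed. The paper itself uses a stricter limit to call a gene different. Each level therefore mixes stages that differed at the looser limit, and a gene without a row has no value here and is not analysed. A count of listed genes is thus a count of genes that passed the looser limit, in either direction, and not of the genes the paper calls different. Of 21924 annotated protein-coding genes, 10455 were listed (47.7%), and of the 194 that the symbol rule takes, 85 were listed (43.8%). Annotated genes include genes with too few reads for that comparison, and nothing is read from the counts of listed genes by role, given below against that share.

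Cells in a tissue hold on to each other through several kinds of junction. Cadherins and nectins bind their counterparts on the next cell and are tied to actin through catenins and afadin, claudins and the JAM proteins seal tight junctions above a plaque of scaffold proteins, desmosomes anchor intermediate filaments, and connexins form the channels of gap junctions. Leydig cells lie in groups in the testis interstitium and are known for abundant gap junctions made of connexin 43, the product of Gja1.

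Folds and the order of genes are given per kb of exonic length, which was known for 85 members, unless the mean is named. Gja1 was the highest member, with 4192 normalized counts per kb, rank 181 of 10522 listed genes with a length. The lowest was Dchs2, with 0.283. Outside the gamma-protocadherins, which are described separately, the median of 71 members was 16.3 normalized counts per kb, against 147 for all listed genes with a length. Of these 71 members, 13 (18.3%) lay above that median. In bulk RNA, fewer cells of a type and less RNA per cell cannot be told apart, so a low value may belong to a few cells or to all. By the mean itself, 14 of 72 members outside the gamma cluster reached 1000 normalized counts (19.4%), against 41.3% of all listed genes. A mean under 10 was found for 13 of the 86 members (15.1%) and for 4.61% of all listed genes. With no replicate error, these shares are descriptions, and the order of neighbouring genes is not resolved.

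**Figure D1:**
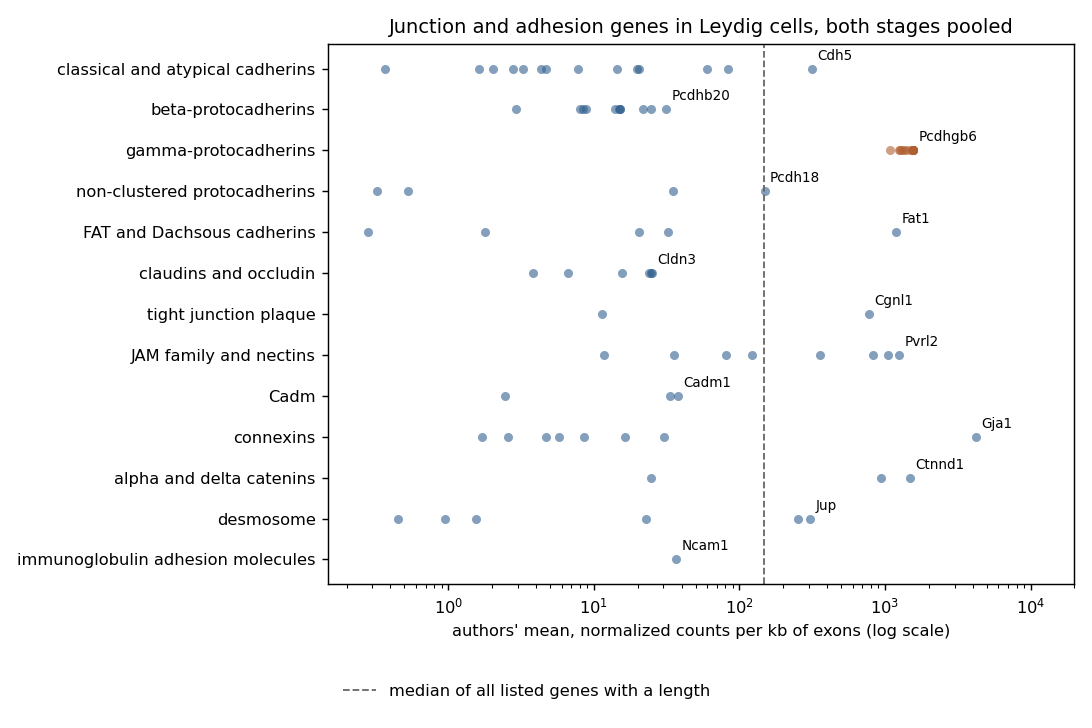
Each point is a member, placed by the authors' mean over all 6 libraries in normalized counts per kb of exons (log scale), in rows by role, with the highest member of each role named. The dashed line is the median of all listed genes with a length, 147, and apart from the 14 gamma-protocadherins, 13 members lie to the right of it.

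Connexins form the channels that couple the cytoplasm of neighbouring cells. Of 19 annotated connexin genes that the symbol rule takes, 8 were listed, with levels from 1.71 to 4192 normalized counts per kb. The mean of Gja1 was 42995 normalized counts, and the gene spans bases 56377330 to 56402513 of chromosome 10 (GRCm38, used throughout). Gjc1, which encodes connexin 45, came next with a mean of 153 and 30.5 normalized counts per kb. Gja1 was thus 137-fold higher than Gjc1 per kb. Gja4, which encodes connexin 37, had 4.68 per kb and Gjb2, which encodes connexin 26, 2.58. Gjb5 was the lowest connexin with 1.71 per kb, from a mean of 2.94 normalized counts. All 8 listed connexins hold their whole coding sequence in 1 exon.

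The 250 bases before the RefSeq start of Gja1 and of Gjb5 are shown because these genes stand at the ends of the connexin range. RefSeq windows on GRCm38.p6 were found for 34 members. Capitals mark a match on either strand to TATAAA, the TATA box, or to AAGGTCA, the core of the site that NR5A1 binds. The Gja1 window is chr10:56377050-56377299 on the plus strand, and the Gjb5 window is chr4:127358165-127358414 on the minus strand.
Gja1: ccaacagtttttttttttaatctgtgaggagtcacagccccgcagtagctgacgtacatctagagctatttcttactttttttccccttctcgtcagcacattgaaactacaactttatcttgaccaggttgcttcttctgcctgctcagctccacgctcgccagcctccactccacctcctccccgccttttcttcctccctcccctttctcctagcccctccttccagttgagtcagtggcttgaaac
Gjb5: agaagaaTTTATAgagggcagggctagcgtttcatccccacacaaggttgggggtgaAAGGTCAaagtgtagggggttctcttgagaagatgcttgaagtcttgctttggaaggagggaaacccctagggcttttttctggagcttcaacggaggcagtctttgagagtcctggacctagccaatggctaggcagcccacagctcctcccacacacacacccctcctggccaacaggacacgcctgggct
The Gja1 window held neither motif and the Gjb5 window held both, which says nothing of a factor's binding. AAGGTCA was in 2 of 41 windows of members (4.88%) and in 4.08% of all 32851 windows, which include non-coding genes. TATAAA was in 12.2% and 12.4%. GGGCGG, the GC box, was in 22 windows of members (53.7%) and in 32.7% of all windows, and in neither of the windows shown.

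Claudins are the strands of tight junctions, and their levels were low. Claudin symbols had 7 rows, 6 of them matched to the 34 annotated claudin and occludin genes, and Ocln was not listed. Cldn3 had 25.2 normalized counts per kb, Cldn1 24.6 and Cldn7 23.9, and Cldn10 was the lowest with 3.80. None of the 6 claudins with a length reached the median of the listed genes. Cldn25, which was singled out after its value was seen, had a mean of 1172 normalized counts. The annotation used has no gene of that symbol, which is an older name both of Cldn25-ps and of Cldnd1, so the row has no level per kb and may not be a claudin. Among the plaque genes, Cgnl1, which encodes paracingulin, a protein of tight and adherens junctions, had a mean of 6076 normalized counts and 775 per kb.

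Nectins and the JAM proteins are immunoglobulin-like molecules that start and line cell contacts. All 8 annotated genes of this role were listed, and 4 of them lay above the median of the listed genes. Pvrl2 (nectin 2), on chromosome 7 from 19716644 to 19750483, had 1242 normalized counts per kb. F11r, which encodes JAM-A, had 1052, and Pvrl1 (nectin 1) 826. Jam2, which encodes JAM-B, had 356 per kb and Jam3, which encodes JAM-C, 122. Pvrl3 (nectin 3) followed with 80.8. Pvrl4 (nectin 4) was the lowest of the role with 11.7, so that Pvrl2 was 106-fold higher than Pvrl4. Pvrl4 and F11r lie within 200000 bases of each other on chromosome 1, between 171370099 and 171464603. Genes outside the rule that may lie between them were not considered.

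Classical cadherins are the calcium-dependent receptors of adherens junctions. The role here holds every Cdh gene, classical or atypical. Of its 23 annotated genes, 14 were listed, and Cdh5 alone lay above the median of the listed genes. Cdh5, on chromosome 8 from 104101625 to 104144511, encodes VE-cadherin, known from endothelial junctions, and had a mean of 1326 normalized counts and 316 per kb. Cdh9 had 83.6 per kb, and Cdh2, which encodes N-cadherin, 60.2. The other 11 cadherins ranged from 20.5 for Cdh17 to 0.370 for Cdh6. Cdh5 was 5.24-fold higher per kb than Cdh2 and 3.77-fold higher than Cdh9.

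Catenins tie cadherins to the cytoskeleton. Ctnnd1, which encodes p120 catenin, had a mean of 10803 normalized counts and 1476 per kb. Of its exonic bases, 61.2% also belong to another annotated gene on the same strand, so part of its reads could have been counted elsewhere too. Ctnna1, which encodes alpha-E-catenin, had 943 per kb, and Ctnna3, alpha-T-catenin, 24.6. The highest listed cadherin of the classical and atypical role, Cdh5 with 316, was below Ctnna1 and above Ctnna3.

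Of 15 annotated desmosome genes, 6 were listed. Jup, which encodes plakoglobin, a plaque protein of both desmosomes and adherens junctions, had 306 normalized counts per kb, and Pkp4, a p120-related plaque protein, 251. Pkp2, plakophilin 2, had 22.9. The cadherins of the desmosome were near the bottom of all listed genes, with 1.54 per kb for Dsg1a and 0.949 for Dsg2. Pkp1 was the lowest with 0.449, from a mean of 2.26 normalized counts, the lowest mean of all members. Jup was 322-fold higher than Dsg2 per kb.

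FAT and Dachsous proteins are giant cadherins known for planar polarity and growth control. Of 6 annotated genes, 5 were listed. Fat1, which spans bases 44935447 to 45052257 of chromosome 8, had a mean of 18739.7 normalized counts and 1197 per kb of its 15655 exonic bases. Fat4 had 32.3 per kb and Dchs1 20.5, so that Fat1 was 37.0-fold higher than Fat4. Fat3 had 1.79, and Dchs2 was the lowest with 0.283. The place of Fat1 depended on the measure. Outside the gamma cluster Fat1 ranked 2 by the mean, 4 per kb of exons and 9 per kb of coding sequence, whereas Gja1 ranked 1 by each of these.

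**Figure D2:**
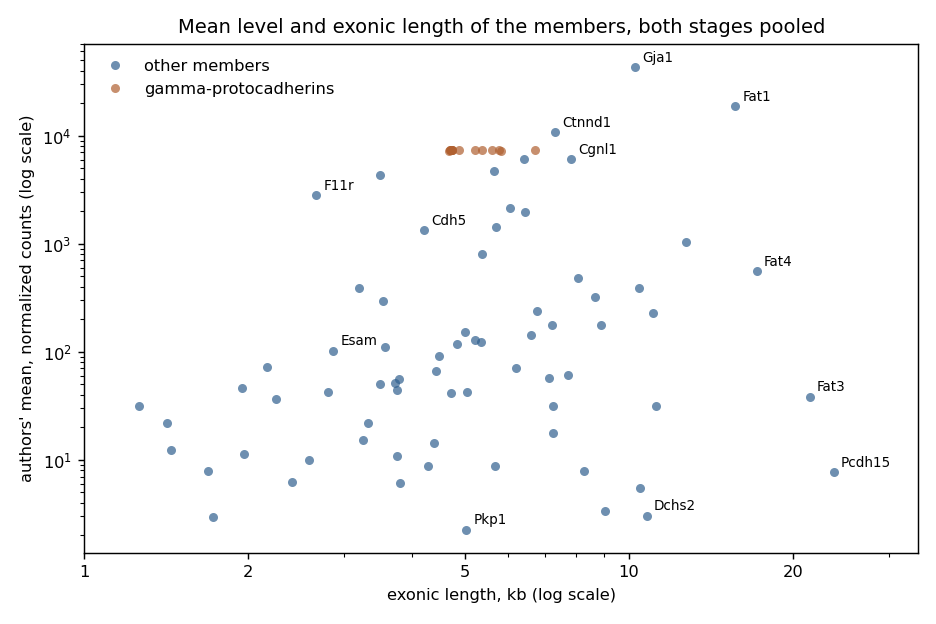
The authors' mean over all 6 libraries in normalized counts is plotted against the exonic length in kb for the 85 members with a length, both on log scales. Gja1 and Fat1 stand at the top right, the gamma-protocadherins form a flat line near 7316, and long genes such as Fat3 and Pcdh15 lie low.

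The gamma-protocadherins, adhesion proteins known from neurons and encoded by a cluster in which each gene pairs a variable exon of its own with shared constant exons, gave nearly the same mean. The 14 listed genes ranged from 7272 for Pcdhgb4 to 7379 for Pcdhgb2, a span of 1.46% of their median of 7316. They have 3 exonic blocks in common on chromosome 18, at 37825021 to 37825079, 37833265 to 37833353 and 37839903 to 37841870, which together hold 2116 bases. Between 31.5% and 66.8% of their exonic bases also belong to another gene on the same strand. Any such sharing was found for 8.51% of all listed genes and for 5 of the 71 members outside this cluster (7.04%). How reads on shared exons were counted is not given in the sources used here, so whether each of the 14 means repeats the same reads was not tested, and the values of single genes of this cluster are uncertain. Per kb of all their exons the genes lay between 1085 for Pcdhgb5 and 1563 for Pcdhgb6, while their exonic lengths ran from 4664 to 6733 bases. By that measure Pcdhgb6, Pcdhga5, Pcdhgb7 and Pcdhga2 came directly after Gja1 among all members, with 1554 to 1563 per kb.

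The beta-protocadherins, which share the locus on chromosome 18 but have no constant exons, did not share 1 value. Of 22 annotated genes, 11 were listed, with means from 10.9 for Pcdhb6 to 143 for Pcdhb22 normalized counts. Per kb, Pcdhb20 had 31.4, Pcdhb16 24.6, Pcdhb22 21.6 and Pcdhb6 2.91. Each listed beta gene has its coding sequence in 1 exon. The annotated beta and gamma genes that were listed lie between 37300799 and 37841873 of chromosome 18. With Cdh2, Ctnna1, Dsg1a and Dsg2 they make 29 of 85 members (34.1%) on that chromosome, against 2.65% of all listed genes. The symbol rule takes the genes of this cluster, so that share follows from the choice of members.

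**Figure D3:**
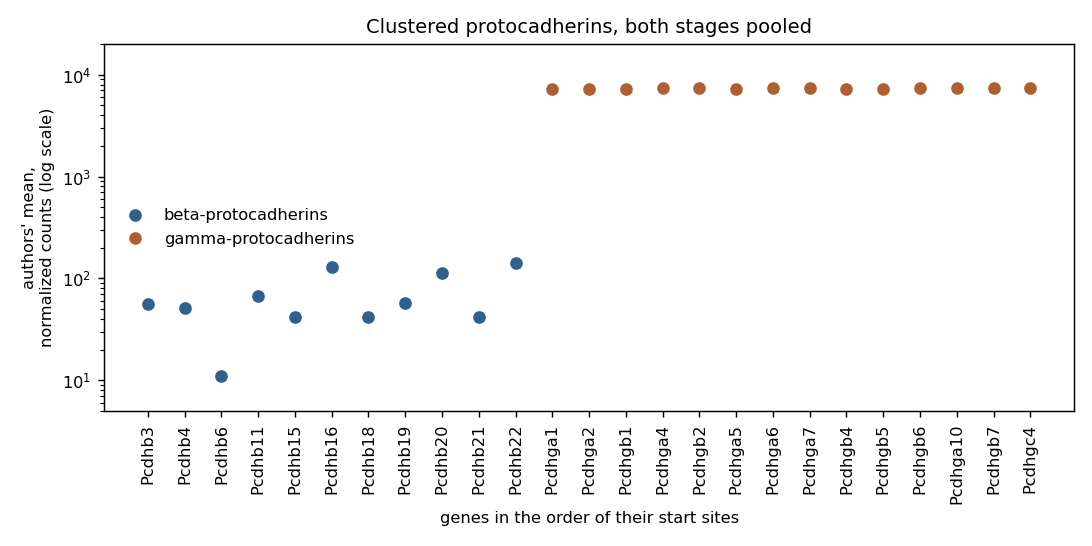
The authors' mean over all 6 libraries in normalized counts (log scale) is shown for the 11 beta-protocadherins and 14 gamma-protocadherins in the order of their start sites. The beta genes scatter from 10.9 to 143, and the gamma genes form a flat line from 7272 to 7379.

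Outside these clusters, Pcdh18 had 149 normalized counts per kb and Pcdh9 35.1. Pcdh19 and Pcdh15, known from neural and sensory cells, were near the bottom with 0.529 and 0.324. Among the Cadm proteins, immunoglobulin molecules known from synapses and epithelia, Cadm1 had 37.6 per kb, Cadm4 33.2 and Cadm3 2.44. Ncam1, the neural cell adhesion molecule, had a mean of 318 normalized counts and 36.7 per kb.

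Genes taken here as partners of these junctions came from a list of 42 symbols outside the rule, of which 23 were listed. Some genes are on that list under 2 names, such as Mllt4 and Afdn, so 23 of 42 is not a share of genes. The median of the 23 was 165 normalized counts per kb, and 14 of them lay above the median of all listed genes. These 14 include Ctnnbip1 and Ctnnbl1, whose place in a junction was not tested. Ctnnb1, which encodes beta-catenin, was the highest with 3503, followed by the actin linkers Rdx with 1458 and Ezr with 1354. Ctnnb1 was 3.71-fold higher than Ctnna1 per kb. Mllt4, which encodes afadin, the nectin partner, had 165, and Cxadr, a receptor of tight junctions, was the lowest with 6.14.

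Markers of the cell types that a sort could hold were read beside the members. All 5 Leydig cell markers were listed, from 21275 normalized counts per kb for Star, the cholesterol carrier of steroid synthesis, to 414861 for Insl3. The value of Insl3 is uncertain, since 64.8% of its exonic bases also belong to another gene on the same strand. Gja1 reached 0.197 of the level of Star per kb and 0.491 by the mean, so this ratio depended on the measure. Of the 3 Sertoli cell markers, Amh had 82.2 and Dhh 20.2, and of the immune cell symbols Csf1r had 170.0, Emr1 54.8 and Cxcl2 5.61. The interstitial progenitor marker Tcf21 had 92.0, and the germ cell marker Ddx4 61.1, the only listed gene of 3 in its panel. None of the 3 markers of peritubular myoid cells was listed. Of the 4 endothelial markers, Tek and Pecam1 were not listed and the other two are members, with Cdh5 at 316 and Esam, an endothelial adhesion molecule, at 35.7 per kb, so that Cdh5 was 8.84-fold higher than Esam. Of other members plotted beside the markers, Cldn5 and Gja4, also known from endothelium, had 15.5 and 4.68, while Jam2 had 356, above Cdh5. These members are in no marker panel, so they do not show how endothelial genes as a set compare with Cdh5. The part of other cell types in the level of Cdh5, or of any member, was not tested.

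**Figure D4:**
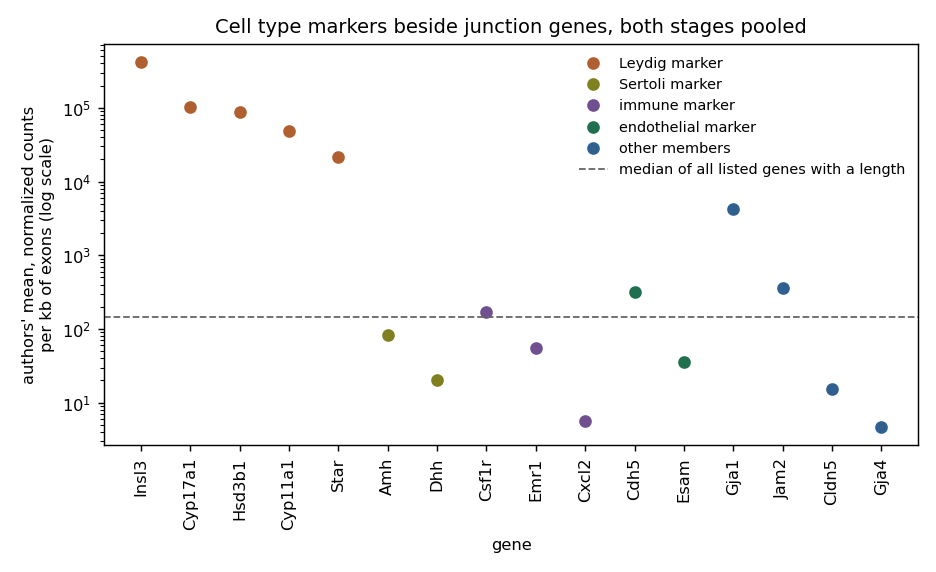
Listed markers of Leydig, Sertoli, immune and endothelial cells and the members Gja1, Jam2, Cldn5 and Gja4 are shown by the authors' mean over all 6 libraries in normalized counts per kb of exons (log scale). Leydig cell markers lie at 21275 or higher and Gja1 at 4192. Jam2 lies at 356, Cdh5 at 316, Esam at 35.7, Cldn5 at 15.5 and Gja4 at 4.68.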

How the data were processed

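Per the methods and the submitters' processing notes, the authors demultiplexed reads with CASAVA 1.8.2, mapped them with GemTools, counted reads per GENCODE gene on GRCm38, dropped genes under 10 reads and ran DESeq2 on the stages. The labels name a stranded total RNA kit with ribosomal RNA depletion, while the study elsewhere names poly(A)+ RNA. The value used is the deposited signal of each gene, the authors' mean over 6 libraries of counts divided by size factors. The table's other columns hold the authors' own comparison (log2 fold change, standard error, Wald statistic and p-values), with an adjusted p below 0.05 in all 10580 rows, and were not used. A deposited sheet of library names was not used. Depth per library is not given by the values used, and which strand was counted is not given in the sources used here.

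Python 3.11.15 was used. Genes were matched to GENCODE vM21 (GRCm38), a later release than the authors', by symbol (10223), or by older symbol (299), and 58 had no match; of the members, 81, 4 and 1. The level per kb is the mean divided by the union of annotated exons. Exons shared with other genes were summed on the same strand. The rule for naming genes took the 3 highest and the lowest per kb of each role, the 5 highest members, members that are markers, and the 3 highest and the lowest partners. Further genes were named outside this rule, among them Gja4, Gjb2, Jam2, Jam3, Pvrl3, Cdh17, Dsg1a, Dsg2, Fat3, Cldn5, Cldn25 and Mllt4. Motifs and ratios were chosen after the values were seen. Length and interval functions were tested on simulated data. No test was made, and samples were grouped by the labelled stage. Alternatives were other lengths, no length, other thresholds and a filter at a mean of 10. The members and lists were chosen with earlier results of these data known. Some members and markers that the rule would name are not reported here.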

Additional observations from a re-analysis of the deposited data

How the results depend on the processing

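Of all 86 members, 27 of those with a length lay above the median of the listed genes per kb, and the other lengths, the mean itself, the filter and current symbols alone gave 25 to 29. With the gamma-protocadherins counted as 1 gene, an alternative chosen after seeing the data, the number was 14. A mean of at least 1000 normalized counts was found for 28 members, for 30 at a threshold of 500 and for 23 at 2000, and for 15 with the gamma cluster counted as 1 gene. The 5 highest members held 30.5% of the summed level per kb. That share was 40.8% by the mean itself, 38.9% by the longest transcript and 50.3% by coding length, and 60.9% with the gamma cluster counted as 1 gene. The 3 highest held 21.4% and the 10 highest 52.8%. The stages were not compared, since the columns that do so are the authors' own results and were left unused, and no replicate could be left out of a pooled mean. No paired analysis was possible because the values used are 1 mean per gene over both stages. The precision of each mean is unknown, and means under 10 rest on few reads.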
